A study of Mus musculus with 6 samples.

Results

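The genes for cytosolic translation initiation and elongation factors were followed in A375, an established human melanoma cell line, after Cas9 editing of ABCE1 or YAE1. The members were chosen as 39 named genes, given by Ensembl identifier and symbol: 32 initiation factors or subunits, the cytosolic poly(A)-binding proteins PABPC1 and PABPC4, and 5 elongation factors. EIF4EBP1 and EIF4EBP2 are counted among the initiation genes as repressors. All 39 were found in the deposited table of 62492 gene rows. The series holds 6 libraries in 3 groups of 2. Every group, controls included, received lentivirus with Cas9 and a guide RNA, was selected with puromycin at 10 µg/mL and gave RNA 7 days after selection. The control group carried guides to LacZ or Luciferase, which are absent from human cells, the sgAbce1 group carried guides to ABCE1 and the sgYAE1 group guides to YAE1. No group was untransduced or edited at another human gene. The ABCE1 and YAE1 guide groups are called knockouts below, a name for the guides only. Whether the libraries of a group differ in guide or in culture is not given, so the p-values below measure no more than how these libraries vary, and that variation may be technical. The rows of ABCE1, YAE1 and LTO1, and marker genes of melanocytes or of other cell types, could not be paired with identifiers from the tables used here, so editing and cell identity were not checked, and neither were the 66 further symbols of related factors and markers.

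Translation starts when eIF2 delivers the initiator tRNA to the small ribosomal subunit together with eIF1, eIF1A, eIF3 and eIF5. The cap-binding complex eIF4F recruits this subunit to the mRNA, eIF1 and eIF5 act in opposite ways on how strictly the start codon is chosen, and eIF5B joins the large subunit. The elongation factor eEF1A then brings each aminoacyl-tRNA and eEF2 moves the ribosome along. ABCE1 is an ATPase that splits ribosomes after termination and binds the freed small subunit, where initiation factors assemble, and YAE1 works with LTO1 to supply ABCE1 with its iron-sulfur clusters. Several of these mRNAs, those of the elongation factors above all, belong to the TOP class, whose terminal oligopyrimidine start couples their translation to mTOR signalling.

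Most of these genes were among the most abundant in the cells. Levels are in FPKM, fragments per unit length of gene model and of library size. Comparisons of level between genes therefore depend on the length given to each gene model, which the sources used here do not state. The smallest lengths that fit the FPKM steps were 1725 for EIF3I and 9431 for EIF3F. At these lengths EIF3I would have 8872.5 to 10509.5 fragments and EIF3F 2948.5 to 3795, which differ less than their FPKM. The common factor of each gene is unknown, so the true ratio of their fragments is not known. EEF1A1 was highest at a mean of 1459 FPKM over the 6 libraries, followed by EEF2 at 487 FPKM, PABPC1 at 363 FPKM and EIF3I at 322 FPKM. In all, 14 members averaged at least 100 FPKM, 13 lay between 50 and 100 FPKM, 7 between 10 and 50 FPKM and 4 below 10 FPKM. EEF1G, a subunit of the eEF1 exchange complex, is listed at 0 in all 6 libraries. The fragment numbers worked out from the FPKM steps were 15713011 to 18399717.5 per library, and for 37 of the 38 members above 0 the counting error was at most 3.6% in every library. EIF4A1 was the exception, where the smallest fragment numbers that fit were 92 to 166.5, with an error of up to 10.4%. This helicase is listed at only 1.03 to 1.7 FPKM, which puts it at the 7.78th percentile of genes tested, and it overlaps a readthrough gene model with SENP3. EIF3C, at 6.14 to 7.36 FPKM, has the near-identical copy EIF3CL. The counting rule is not given in the sources used here, so the levels of EIF4A1 and EIF3C are uncertain, as is that of any member that overlaps another gene model. The 0 of EEF1G is likewise uncertain and is not read as absence of its RNA.

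**Figure D1:**
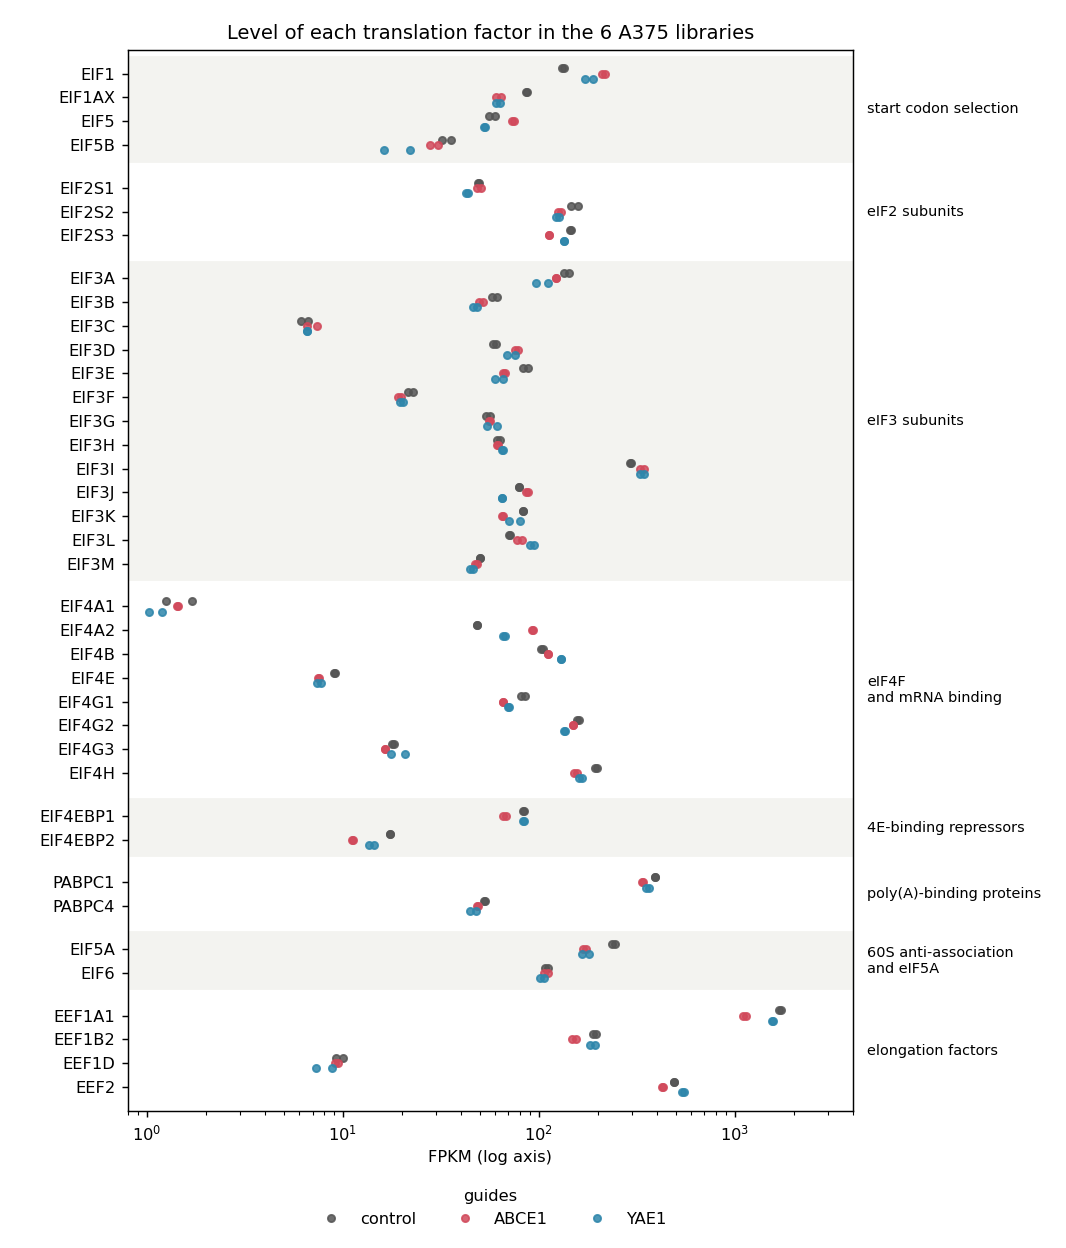
FPKM (log axis) of the 38 members above 0 in each of the 6 libraries, grouped by role; each point is 1 library (EEF1G, listed at 0, is not drawn). EEF1A1 stands highest in every group, EIF4A1 lowest, and the eIF3 subunits other than EIF3C spread from 19.2 to 345 FPKM.

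With ABCE1 guides more translation factors were lower than higher. Differences were tested with limma on log2(FPKM + 1) over the 12578 genes that averaged at least 1 FPKM, with adjusted p under 0.05 as the threshold, and 38 of the 39 members entered the test. Of these, 17 were lower (44.7%) and 8 higher (21.1%) than with control guides, and 13 did not pass. Over all genes tested 20.4% were lower and 37.5% higher, 57.9% together. Abundance moves with this: among the 777 genes of at least 50 FPKM 72.2% were called, 48.6% lower and 23.6% higher, and among the 27 members of that class 51.9% were lower and 29.6% higher. The members' shares therefore lay close to those of other abundant genes. The median log2 change was -0.15 over the members, 0.098 over all genes tested and -0.135 over the abundant genes. Calls present in the main fit and in each of 14 alternative settings numbered 12 lower and 4 higher among the members, against 13.3% lower and 24% higher of all genes tested. The 4 were EIF4A2, EIF1, EIF3D and EIF5. Without control replicate 1, control replicate 2 or ABCE1 replicate 2 the count of higher members was 4, against 8 with all libraries.

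With YAE1 guides 20 members were lower (52.6%) and 7 higher (18.4%), and 11 did not pass. Here all genes tested gave 17.6% lower and 34.2% higher, 51.8% together, and the abundant genes 66.7% together, 35.4% lower and 31.3% higher. Of the 27 abundant members 48.1% were lower and 25.9% higher. The median log2 change was -0.14 over the members, 0.096 over all genes tested and -0.018 over the abundant genes. Calls present under all 14 alternatives numbered 12 lower and 5 higher, against 10.4% and 20.2% of all genes tested. Without control replicate 1 or control replicate 2 the count of lower members was 13 or 12 in place of 20.

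Both comparisons share the control libraries, so their directions are set side by side without a test of overlap. In both knockouts 13 members were lower (34.2%), against 12.8% of all genes, and 6 were higher (15.8%), against 26.2%. EEF2 and EIF3J were called in opposite directions, a pattern that 0.978% of all genes tested showed. In at least 1 knockout 31 members were called (81.6%), against 69.7% of all genes. Another 7 passed in neither (18.4%, against 30.3%): EEF1D, EIF3C, EIF3G, EIF3H, EIF4A1, EIF4G3 and EIF6. These joint shares were not worked out for genes of at least 50 FPKM, to which most members belong. Of those genes 48.6% were lower and 23.6% higher with ABCE1 guides, and 35.4% and 31.3% with YAE1 guides. The joint counts are therefore not read as particular to translation factors. With groups of 2, libraries that do not overlap are common. With ABCE1 guides both libraries lay above both controls for 8 members and below them for 23, against 50.6% and 30.9% of all genes (81.5% together). With YAE1 guides this held for 8 and 25 members, against 49.8% and 27.9% (77.7% together), and for YAE1 against ABCE1 libraries for 14 and 17, against 33.4% and 36.8% (70.2% together). The 9 members called under every alternative in both knockouts were EIF1, EIF3D and EIF4A2, which rose, and EIF1AX, EIF3E, EIF4EBP2, EIF4G1, EIF4H and EIF5A, which fell. Of all genes tested, 24% were higher and 13.3% lower under every alternative with ABCE1 guides, and 20.2% and 10.4% with YAE1 guides. The share called this way in both knockouts was not worked out, nor were these shares for abundant genes alone. FPKM of total RNA does not measure RNA per cell, so these are changes relative to the rest of the transcriptome, and in bulk RNA fewer cells of a type and less RNA per cell cannot be told apart. When each library was centred on its median gene, the changes shifted by -0.14 with ABCE1 guides and -0.1 with YAE1 guides. It left 4 higher and 25 lower members with ABCE1 guides, and 5 and 24 with YAE1 guides, where all genes then gave 26% higher and 31.1% lower with ABCE1 guides and 24% and 24.8% with YAE1 guides.

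**Figure D2:**
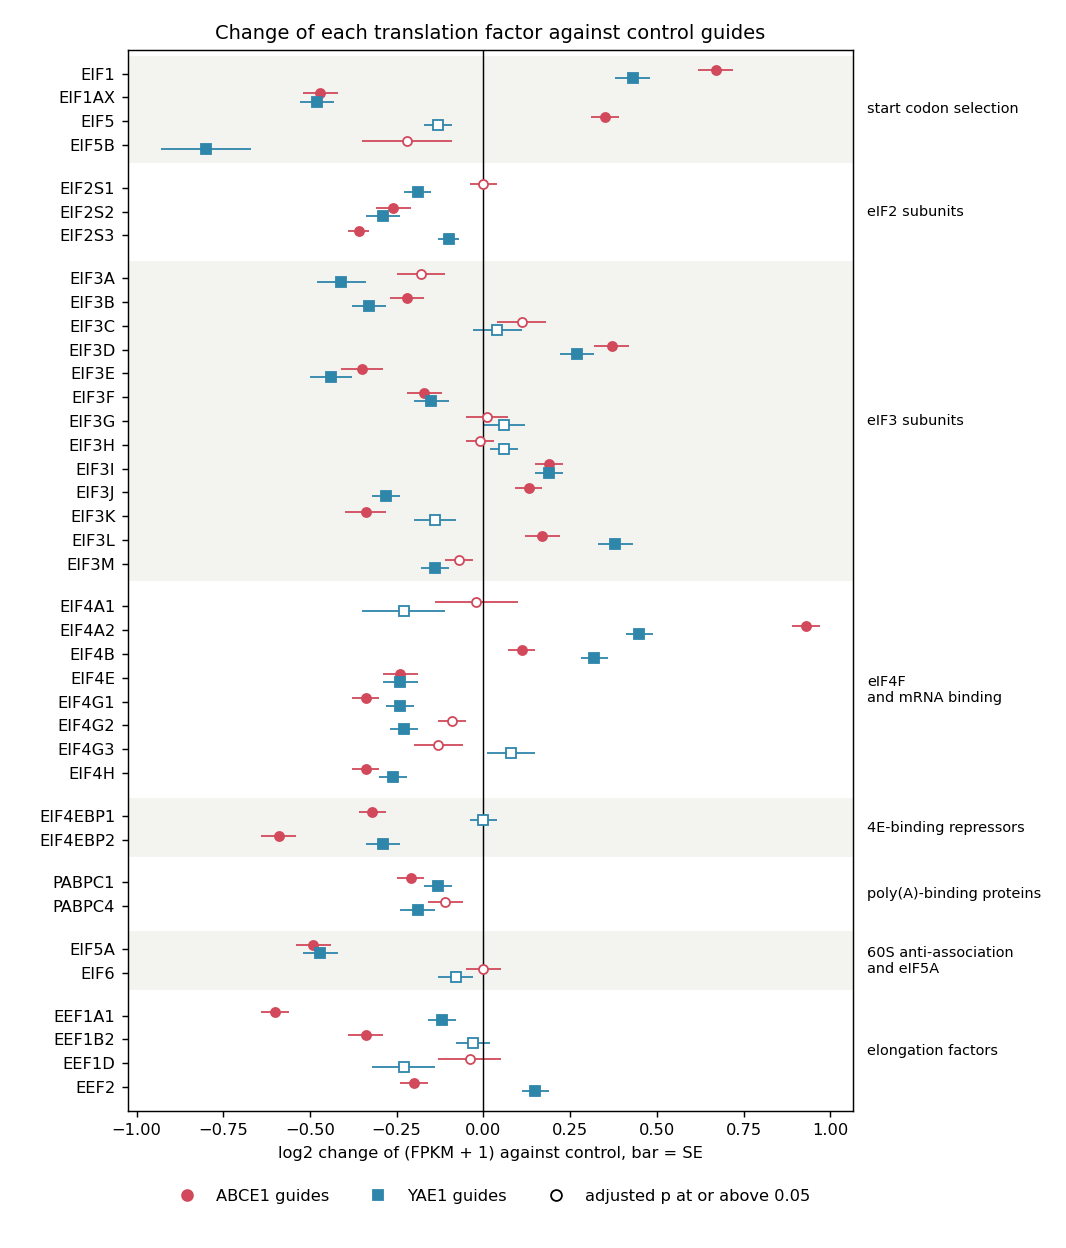
Log2 change of (FPKM + 1) against control guides for the 38 members tested, grouped by role, with ABCE1 guides (circles) and YAE1 guides (squares); bars are SE from limma and open symbols did not pass. EIF4A2 lies farthest to the right with ABCE1 guides (0.93) and EIF5B farthest to the left with YAE1 guides (-0.80).

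The factors of start codon selection moved in different directions. EIF1 (ENSG00000173812), which holds the scanning subunit open and favours strict start codon choice, read 132 and 135 FPKM in the control libraries, 217 and 209 FPKM with ABCE1 guides and 189.5 and 172 FPKM with YAE1 guides. The 3 groups did not overlap. The rise was 1.6-fold with ABCE1 guides (log2 change 0.67 ± 0.05 SE, limma adjusted p = 0.00012) and 1.35-fold with YAE1 guides (0.43 ± 0.05, limma adjusted p = 0.00097). Its partner in scanning EIF1AX fell from 86.9 and 86.3 FPKM to 60.5 and 64.4 FPKM with ABCE1 guides and to 60.7 and 63.3 FPKM with YAE1 guides. These are log2 changes of -0.47 ± 0.05 (limma adjusted p = 0.00026) and -0.48 ± 0.05 (limma adjusted p = 0.00036), and the difference between the knockouts was -0.01 ± 0.05 (limma adjusted p = 0.91).

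EIF5, the GTPase-activating factor of eIF2, separated the knockouts. It read 59.5 and 55.9 FPKM in the controls, 73.3 and 74.7 FPKM with ABCE1 guides and 52.3 and 53.1 FPKM with YAE1 guides. It thus rose with ABCE1 guides (0.35 ± 0.04, limma adjusted p = 0.0007), while the change with YAE1 guides was -0.13 ± 0.04 and missed the threshold (limma adjusted p = 0.051, 0.0074 to 0.29 over the alternatives). Per length, EIF1 exceeded EIF5 by 2.22 and 2.41 times in the controls, 2.97 and 2.8 times with ABCE1 guides and 3.63 and 3.23 times with YAE1 guides. The ratio was above the controls in all 4 edited libraries, but it was not tested. Of single genes, 81.5% did not overlap the controls with ABCE1 guides and 77.7% with YAE1 guides. The ratio of EIF5B to EIF1AX was 0.37 and 0.412 in the controls, 0.503 and 0.43 with ABCE1 guides and 0.268 and 0.349 with YAE1 guides. EIF5B, the GTPase of subunit joining, was at 32.2 and 35.6 FPKM in the controls, 30.4 and 27.7 FPKM with ABCE1 guides and 16.3 and 22.1 FPKM with YAE1 guides. The groups did not overlap, but the YAE1 libraries lay far apart. The fall with YAE1 guides was the steepest among the members (0.567 of the control level, log2 change -0.80 ± 0.13, limma adjusted p = 0.0029). With ABCE1 guides it did not pass (-0.22 ± 0.13, limma adjusted p = 0.21), although without YAE1 replicate 1 or YAE1 replicate 2 in the shared fit the adjusted p was 0.038.

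The mRNAs of the eIF2 subunits were lower or level in both knockouts. EIF2S3, the tRNA- and GTP-binding gamma subunit, read 145 and 146 FPKM in the controls, 113 and 113 FPKM with ABCE1 guides and 135 and 135 FPKM with YAE1 guides. The fall with ABCE1 guides was clear of the spread (-0.36 ± 0.03, limma adjusted p = 0.00023). That with YAE1 guides was small (-0.10 ± 0.03, limma adjusted p = 0.043) and lost without any library but YAE1 replicate 1. It was also lost without the filter (limma adjusted p = 0.086), with quantile normalization (0.11) and with only the 4 libraries compared (0.09). The replicate block (0.078) and the fit without the variance trend (0.13) undid it too. EIF2S2, the beta subunit, fell in both (-0.26 ± 0.05 and -0.29 ± 0.05, limma adjusted p = 0.0043 and 0.0036), a call lost with quantile normalization for ABCE1 guides alone (0.16, range 0.00074 to 0.16). EIF2S1, the alpha subunit that stress kinases phosphorylate, was at 49.2 ± 0.149 FPKM in the controls and 49.3 ± 1.67 FPKM with ABCE1 guides (SD, n = 2 each). With YAE1 guides it was lower at 42.9 ± 0.885 FPKM (-0.19 ± 0.04, limma adjusted p = 0.01), a call lost without control replicate 1 (0.063) or control replicate 2 (0.054; range 0.0026 to 0.063). In each knockout a different subunit thus showed no or the smallest change, EIF2S1 with ABCE1 guides and EIF2S3 with YAE1 guides.

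Among the 13 subunits of eIF3, the scaffold that holds the initiation complex together, some were higher and others lower. Their summed level was nearly flat, at 1057 and 1074 FPKM in the controls, 1063 and 1089.5 FPKM with ABCE1 guides and 1062 and 1037 FPKM with YAE1 guides. Within it 4 subunits were lower, 4 higher and 5 not called with ABCE1 guides, and 6, 3 and 4 with YAE1 guides. The shares called, 61.5% and 69.2%, lay near the 57.9% and 51.8% of all genes tested and the 72.2% and 66.7% of abundant genes. EIF3E fell most with ABCE1 guides and in both knockouts. Its libraries read 82.8 and 87.6 FPKM in the controls, 67.1 and 66 FPKM with ABCE1 guides and 59.7 and 65.3 FPKM with YAE1 guides (-0.35 ± 0.06 and -0.44 ± 0.06, limma adjusted p = 0.0018 and 0.00093). EIF3D, the subunit that can itself bind the cap of some mRNAs, rose from 60.4 and 58.3 FPKM to 75.8 and 78.5 FPKM with ABCE1 guides and 75.4 and 68.7 FPKM with YAE1 guides (0.37 ± 0.05 and 0.27 ± 0.05, limma adjusted p = 0.0014 and 0.0065).

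The large scaffold subunits EIF3A and EIF3B were lower with YAE1 guides. EIF3A was at 135 and 142 FPKM in the controls, 123 and 122 FPKM with ABCE1 guides and 96.5 and 112 FPKM with YAE1 guides. The change with YAE1 guides passed (-0.41 ± 0.07, limma adjusted p = 0.0037) and that with ABCE1 guides did not (-0.18 ± 0.07, limma adjusted p = 0.07), although it did without YAE1 replicate 1 (0.0073) or YAE1 replicate 2 (0.0074). EIF3B went from 61.3 and 57.5 FPKM to 49.7 and 52 FPKM with ABCE1 guides and 48.3 and 46 FPKM with YAE1 guides (-0.22 ± 0.05 and -0.33 ± 0.05, limma adjusted p = 0.0099 and 0.0023). The ABCE1 call was lost without control replicate 1 (0.075) or ABCE1 replicate 1 (0.068; range 0.0016 to 0.075). EIF3K, a peripheral subunit, fell with ABCE1 guides to 65.2 ± 0.481 FPKM from 82.7 ± 0.0475 FPKM (SD, n = 2 each; -0.34 ± 0.06, limma adjusted p = 0.0032). With YAE1 guides its libraries lay apart at 79.7 and 70.4 FPKM, and the change of -0.14 ± 0.06 did not pass (limma adjusted p = 0.092, and 0.0058 without YAE1 replicate 1).

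EIF3L, the neighbour of EIF3K in the complex, was higher instead. It read 70.2 and 71.1 FPKM in the controls, 77.4 and 82.1 FPKM with ABCE1 guides and 94.4 and 90 FPKM with YAE1 guides. The rise with YAE1 guides was 1.3-fold (0.38 ± 0.05, limma adjusted p = 0.0009). That with ABCE1 guides (0.17 ± 0.05, limma adjusted p = 0.018) was lost without control replicate 1 (0.097), control replicate 2 (0.072) or ABCE1 replicate 2 (0.12), and relative to the median gene it was 0.03 (0.6; range 0.0021 to 0.6). EIF3I, the subunit highest in FPKM, was 1.14-fold higher in both knockouts (0.19 ± 0.04 in each, limma adjusted p = 0.0098 and 0.011). Relative to the median gene these were 0.05 and 0.10 and no longer called (0.4 and 0.15). The calls were also lost without control replicate 1 (0.067 and 0.073) or control replicate 2 (0.05 and 0.054), and with ABCE1 guides without ABCE1 replicate 2 (0.08).

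EIF3J, the loosely bound subunit that acts with ABCE1 in ribosome recycling, moved in opposite directions. Its libraries read 79.1 and 79.5 FPKM in the controls, 85.5 and 87.6 FPKM with ABCE1 guides and 64.9 and 65.2 FPKM with YAE1 guides, with no overlap between any groups. The fall with YAE1 guides was -0.28 ± 0.04 (limma adjusted p = 0.0011). The rise with ABCE1 guides was smaller (0.13 ± 0.04, limma adjusted p = 0.025). It was lost without control replicate 1 (0.13), control replicate 2 (0.1), ABCE1 replicate 1 (0.071) or ABCE1 replicate 2 (0.14), and was -0.01 relative to the median gene (0.79; range 0.0025 to 0.79). EIF3F was slightly lower in both (-0.17 ± 0.05 and -0.15 ± 0.05, limma adjusted p = 0.028 and 0.049). Its ABCE1 call was lost without control replicate 2 (0.17), ABCE1 replicate 1 (0.066) or ABCE1 replicate 2 (0.14), and its YAE1 call without any 1 of the 6 libraries (0.063 to 0.25). EIF3M was lower with YAE1 guides (-0.14 ± 0.04, limma adjusted p = 0.027), a call lost without any library but YAE1 replicate 1. It was also lost without the filter (limma adjusted p = 0.063), with quantile normalization (0.055), with only the 4 libraries compared (0.051) and without the variance trend (0.067). EIF3C, EIF3G and EIF3H did not pass in either knockout, with log2 changes between -0.01 and 0.11. Relative to the median gene EIF3H was lower with ABCE1 guides (-0.15, limma adjusted p = 0.018).

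Among the factors that bring the mRNA to the ribosome, EIF4A2 (ENSG00000156976) showed the largest rise of all members. This DEAD-box helicase, a paralogue of EIF4A1, read 48.2 and 48.3 FPKM in the controls, 93 and 92.7 FPKM with ABCE1 guides and 65.8 and 66.9 FPKM with YAE1 guides. The replicates lay close together and the groups far apart. The rise was 1.92-fold with ABCE1 guides (0.93 ± 0.04, limma adjusted p = 1.3e-05) and 1.37-fold with YAE1 guides (0.45 ± 0.04, limma adjusted p = 0.00018). EIF4A1 did not pass in either comparison, with 1.7 and 1.25 FPKM in the controls, 1.42 and 1.44 FPKM with ABCE1 guides and 1.03 and 1.2 FPKM with YAE1 guides. EIF4B, the helicase cofactor, was at 102 and 105 FPKM in the controls, 111 and 112 FPKM with ABCE1 guides and 129 and 130 FPKM with YAE1 guides. It rose with YAE1 guides (0.32 ± 0.04, limma adjusted p = 0.00064). Its ABCE1 call (0.11 ± 0.04, limma adjusted p = 0.042) was lost without control replicate 1 (0.22), control replicate 2 (0.11), ABCE1 replicate 1 (0.14) or ABCE1 replicate 2 (0.17) and was -0.03 relative to the median gene (0.51; range 0.0022 to 0.51).

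The other eIF4 genes were lower or did not pass. EIF4G1, the scaffold of eIF4F, fell from 85 and 81 FPKM to 65.5 and 65.4 FPKM with ABCE1 guides and 70 and 70.4 FPKM with YAE1 guides (-0.34 ± 0.04 and -0.24 ± 0.04, limma adjusted p = 0.00056 and 0.0032). Its paralogue EIF4G3 was at 18.2 and 17.8 FPKM in the controls, 16.5 and 16.4 FPKM with ABCE1 guides and 17.7 and 20.8 FPKM with YAE1 guides. Neither change passed (-0.13 ± 0.07 and 0.08 ± 0.07, limma adjusted p = 0.19 and 0.38), but leaving out a YAE1 library moved them: for ABCE1 guides the adjusted p was 0.036 or 0.037, and for YAE1 guides the change was 0.20 (0.023) without YAE1 replicate 1 and -0.03 (0.65) without YAE1 replicate 2. EIF4G1 exceeded EIF4G3 per length by 4.66 and 4.54 times in the controls, 3.98 and 3.98 times with ABCE1 guides and 3.96 and 3.38 times with YAE1 guides. EIF4G2, a relative without the cap-binding partner site, passed with YAE1 guides (-0.23 ± 0.04, limma adjusted p = 0.0028) and not with ABCE1 guides (-0.09 ± 0.04, limma adjusted p = 0.097). Relative to the median gene it was lower with ABCE1 guides as well (-0.22, limma adjusted p = 0.004). EIF4H, another helicase cofactor, fell in both (-0.34 ± 0.04 and -0.26 ± 0.04, limma adjusted p = 0.00046 and 0.0021).

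The cap-binding protein and its repressors were lower together with ABCE1 guides. EIF4E went from 9.09 ± 0.0794 FPKM to 7.53 ± 0.0554 FPKM with ABCE1 guides and 7.56 ± 0.267 FPKM with YAE1 guides (SD, n = 2 each), log2 changes of -0.24 ± 0.05 in both (limma adjusted p = 0.0069 and 0.0093). The YAE1 call was lost without control replicate 2 (0.054; range 0.0022 to 0.054). EIF4EBP2 fell from 17.3 and 17.4 FPKM to 11.1 and 11.3 FPKM with ABCE1 guides and 13.6 and 14.4 FPKM with YAE1 guides, with no overlap between groups. Its log2 changes were -0.59 ± 0.05 (limma adjusted p = 0.00015) and -0.29 ± 0.05 (limma adjusted p = 0.0035). EIF4EBP1, a repressor that mTOR inactivates by phosphorylation, fell with ABCE1 guides from 82.9 and 84.1 FPKM to 67.8 and 65.7 FPKM (-0.32 ± 0.04, limma adjusted p = 0.00057). With YAE1 guides it read 83.2 and 83.7 FPKM and overlapped the controls (limma adjusted p = 0.99). EIF4EBP1 exceeded EIF4EBP2 by 4.79 and 4.82 times in the controls, 6.13 and 5.8 times with ABCE1 guides and 6.14 and 5.79 times with YAE1 guides. The ratio was above the controls in all 4 edited libraries, but it was not tested. Of single genes, 81.5% and 77.7% did not overlap the controls with ABCE1 and YAE1 guides.

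Of the poly(A)-binding proteins, which bridge the mRNA's tail to eIF4G, PABPC1 was lower in both knockouts and PABPC4 passed with YAE1 guides alone. PABPC1 read 390.5 and 392 FPKM in the controls, 339 and 338 FPKM with ABCE1 guides and 365 and 352 FPKM with YAE1 guides. The groups did not overlap, and the changes were -0.21 ± 0.04 (limma adjusted p = 0.0032) and -0.13 ± 0.04 (limma adjusted p = 0.028). The first was lost with quantile normalization (-0.03, 0.36; range 0.00065 to 0.36). The second was lost without any control or ABCE1 library. It was also lost without the filter (limma adjusted p = 0.12), with only the 4 libraries compared (0.066), with the replicate block (0.051) and without the variance trend (0.086). PABPC4 was at 53.1 and 52.4 FPKM in the controls, 49.1 and 48.6 FPKM with ABCE1 guides and 48 and 44.6 FPKM with YAE1 guides. It passed with YAE1 guides (-0.19 ± 0.05, limma adjusted p = 0.016), though not without control replicate 1 (0.089) or control replicate 2 (0.065; range 0.0045 to 0.089). With ABCE1 guides it did not pass (-0.11 ± 0.05, limma adjusted p = 0.088). It did with only the 4 libraries compared (limma adjusted p = 0.029) and relative to the median gene (-0.25, limma adjusted p = 0.0062). PABPC1 exceeded PABPC4 by 6.89 to 7.88 times in the 6 libraries.

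EIF5A, which helps ribosomes through stretches of proline and carries the hypusine modification, fell in both knockouts. It read 245 and 236 FPKM in the controls, 174 and 168 FPKM with ABCE1 guides and 179.8 and 167 FPKM with YAE1 guides. The log2 changes were -0.49 ± 0.05 (limma adjusted p = 0.00027) and -0.47 ± 0.05 (limma adjusted p = 0.00046), and the difference between knockouts was 0.02 ± 0.05 (limma adjusted p = 0.80). EIF6, which keeps the large subunit from joining too early, stayed between 101 and 112 FPKM in all 6 libraries and did not pass in either knockout (limma adjusted p = 0.94 and 0.20). Relative to the median gene it was lower in both (-0.14 and -0.17, limma adjusted p = 0.045 and 0.026).

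Of the 4 elongation factors tested, EEF1A1, EEF1B2 and EEF2 were lower with ABCE1 guides and EEF1D did not pass. With YAE1 guides EEF1A1 was lower, EEF2 higher and the others did not pass. With ABCE1 guides 20.4% of all genes tested and 48.6% of genes of at least 50 FPKM were lower. With YAE1 guides 35.4% of genes of at least 50 FPKM were lower and 31.3% higher. Genes of at least 200 FPKM had median changes of -0.207 with ABCE1 guides and 0.066 with YAE1 guides. EEF1A1 (ENSG00000156508), the most abundant member, read 1680.1 and 1716 FPKM in the controls, 1146 and 1100.0 FPKM with ABCE1 guides and 1564 and 1551 FPKM with YAE1 guides. With ABCE1 guides it was at 0.661 of the control level (-0.60 ± 0.04, limma adjusted p = 6.4e-05). With YAE1 guides it was at 0.917 of it (-0.12 ± 0.04, limma adjusted p = 0.039), a call lost without any control or ABCE1 library. It was also lost without the filter (limma adjusted p = 0.32), with only the 4 libraries compared (0.083), with the replicate block (0.071) and without the variance trend (0.097). EEF1B2, an exchange factor for eEF1A, fell with ABCE1 guides from 192 ± 5.52 to 151 ± 4.23 FPKM (SD, n = 2 each; -0.34 ± 0.05, limma adjusted p = 0.00088) and not with YAE1 guides (188 ± 6.89 FPKM, -0.03 ± 0.05, limma adjusted p = 0.58). Its partner EEF1D lay at 7.29 to 9.99 FPKM and did not pass with either guide (limma adjusted p = 0.70 and 0.062). With YAE1 guides it was lower relative to the median gene (-0.33, limma adjusted p = 0.023), and the change was -0.35 without YAE1 replicate 1.

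EEF2, the translocase, changed in opposite directions. It was at 490.4 and 489 FPKM in the controls, 428 and 425 FPKM with ABCE1 guides and 549 and 539 FPKM with YAE1 guides, and no groups overlapped. The changes were -0.20 ± 0.04 (limma adjusted p = 0.0032) and 0.15 ± 0.04 (limma adjusted p = 0.012). The rise with YAE1 guides was lost without control replicate 1 (0.079) or control replicate 2 (0.081) and was 0.05 relative to the median gene (0.31; range 0.003 to 0.31), while the fall with ABCE1 guides became 0.01 with quantile normalization (0.67; range 0.00062 to 0.67). Per length, EEF1A1 exceeded EEF2 by 3.43 and 3.51 times in the controls, 2.68 and 2.59 times with ABCE1 guides and 2.85 and 2.88 times with YAE1 guides. EEF1A1 was thus lower relative to EEF2 in all 4 edited libraries. The same held relative to EEF1B2, at 8.91 and 8.74 times in the controls, 7.72 and 7.13 with ABCE1 guides and 8.1 and 8.46 with YAE1 guides. Neither ratio was tested. Of single genes, 81.5% and 77.7% did not overlap the controls with ABCE1 and YAE1 guides.

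**Figure D3:**
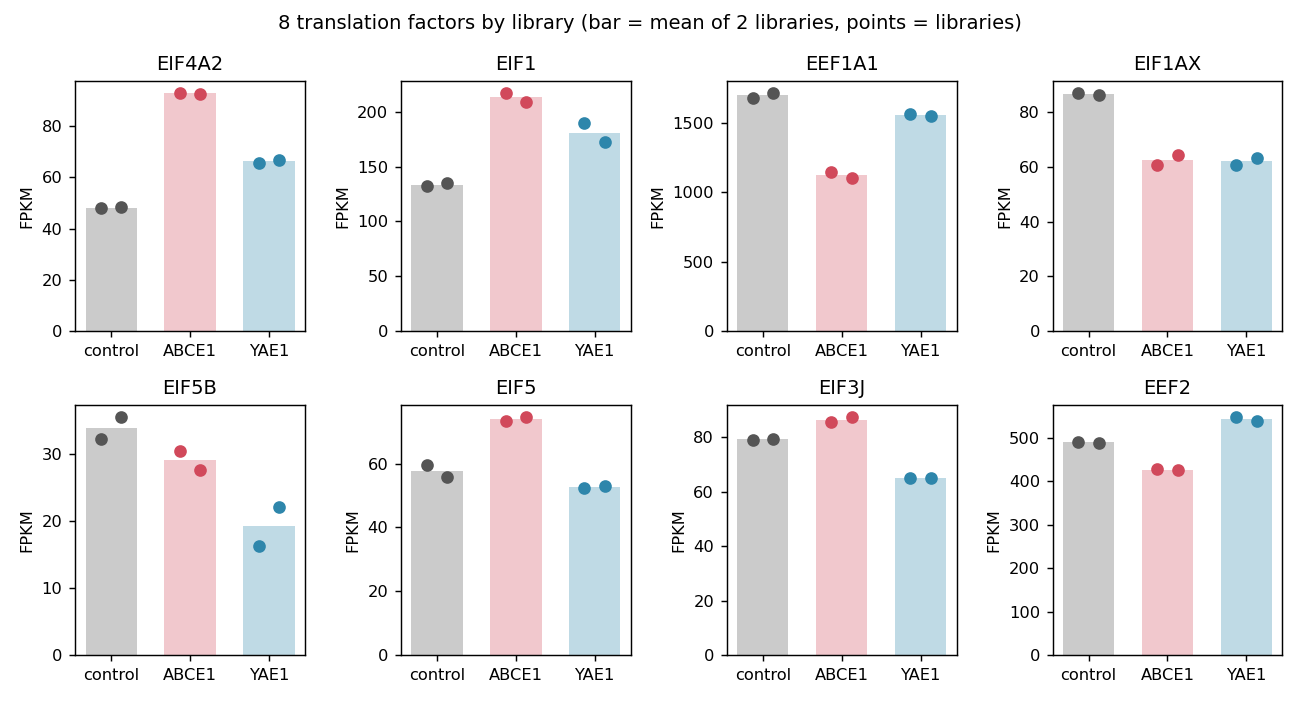
FPKM of 8 translation factors; bars are the means of 2 libraries, points the libraries, and each axis starts at 0. EIF4A2 and EIF1 are highest with ABCE1 guides, EEF1A1 lowest with ABCE1 guides, and EIF3J and EEF2 lie on opposite sides of the controls in the 2 knockouts.

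The members made up a smaller share of the summed FPKM in the edited libraries. Their FPKM added up to 2.21% and 2.23% of the library's summed FPKM in the controls, 1.91% and 1.9% with ABCE1 guides and 2.02% and 2.04% with YAE1 guides. Without EEF1A1 the shares were 1.55% in both controls, 1.46% in both ABCE1 libraries and 1.43% and 1.44% in the YAE1 libraries. EEF1A1 alone was 0.67% of the summed FPKM in the controls, 0.446% with ABCE1 guides and 0.592% with YAE1 guides (means of 2 libraries). The edited libraries were below the controls with and without EEF1A1. The summed FPKM of all genes was itself higher in the YAE1 libraries (266479 and 259523) than in the ABCE1 libraries (251809 and 251572). In FPKM, the members without EEF1A1 added up to 3917 and 3939 in the controls, 3671 and 3681 with ABCE1 guides and 3823 and 3734 with YAE1 guides, so that the order of the knockouts depends on whether the sum is taken as a share. These sums, to which EEF1G adds 0, are given as values and were not tested.

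A set of 10 members known for a TOP start was also counted: EEF1A1, EEF1B2, EEF1D, EEF1G, EEF2, PABPC1, EIF3E, EIF3F, EIF3H and EIF4B. Of the 9 tested, 6 were lower and 1 higher with ABCE1 guides (median log2 change -0.20), and 4 were lower and 2 higher with YAE1 guides (median -0.12). The 29 other members gave 11 lower and 7 higher with ABCE1 guides (median -0.11) and 16 lower and 5 higher with YAE1 guides (median -0.19). Between the knockouts 4 of the 9 were higher with YAE1 than with ABCE1 guides and none was lower, while 5 and 8 of the 29 others were. For comparison, 48.6% of all genes of at least 50 FPKM were lower and 23.6% higher with ABCE1 guides (median -0.135). With YAE1 guides 35.4% of them were lower and 31.3% higher (median -0.018). Between the knockouts 33.6% of them were higher and 12.5% lower with YAE1 guides. Over all genes tested 20.4% were lower and 37.5% higher with ABCE1 guides, and 17.6% and 34.2% with YAE1 guides. Between the knockouts 15.3% of all genes tested were higher and 18.7% lower with YAE1 guides. These are counts, and the difference between the sets was not tested. Human promoter and protein sequences were not used here, so the start of each mRNA was not examined.

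**Figure D4:**
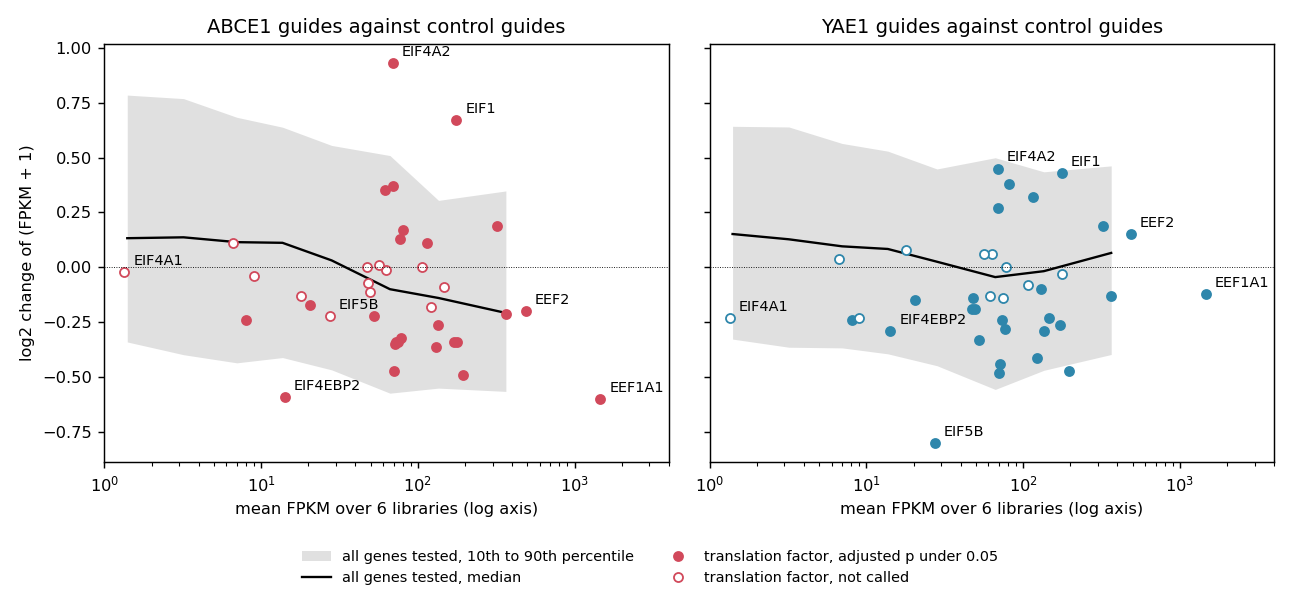
Log2 change against control guides by mean FPKM over the 6 libraries (log axis) for the members (points; open if not called), with the median (line) and the 10th to 90th percentile (grey) of all 12578 genes tested in 8 abundance classes. Most members follow the lower median of abundant genes with ABCE1 guides, where EIF4A2 and EIF1 lie above the grey band, EIF4EBP2 lies below it and EEF1A1, to the right of the drawn band, is at -0.60 against a 10th percentile of -0.564 for genes of at least 200 FPKM; with YAE1 guides EIF5B lies farthest below the band.

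Set directly against each other, the knockouts differed at 17 of the 38 members (44.7%), with 9 higher (23.7%) and 8 lower (21.1%) with YAE1 guides. Over all genes tested 34% differed, 15.3% higher and 18.7% lower, and among the abundant genes 33.6% were higher and 12.5% lower. EEF1A1 (0.47 ± 0.04, limma adjusted p = 0.002), EEF1B2 (0.31 ± 0.05, limma adjusted p = 0.0053), EEF2 (0.35 ± 0.04, limma adjusted p = 0.0026), EIF2S3 (0.26 ± 0.03, limma adjusted p = 0.0042) and EIF4EBP1 (0.32 ± 0.04, limma adjusted p = 0.0032) were higher with YAE1 guides under every alternative. EIF4A2 (-0.48 ± 0.04, limma adjusted p = 0.0018), EIF5 (-0.48 ± 0.04, limma adjusted p = 0.0023) and EIF3J (-0.41 ± 0.04, limma adjusted p = 0.0022) were lower under every alternative. Calls under every alternative were made for 4.56% of all genes in the higher and 5.49% in the lower direction. After centring on the median gene 11 were higher and 6 lower, against 19.0% and 15.0% of all genes. Without ABCE1 replicate 1 the counts were 5 higher and 4 lower, and without ABCE1 replicate 2 they were 8 and 3.

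The other 9 differences depended on the libraries included, and most of them on the processing too. Without the filter EIF1, EIF2S1, EIF3A, EIF3K, EIF3L, EIF4G2 and EIF5B were lost. EIF3A, EIF3K and EIF4G2 were also lost with only the 4 libraries compared in the fit and without the variance trend. EIF3A and EIF4G2 were lost after centring on the median gene, and EIF3K with the replicate block. The largest was EIF5B (-0.59 ± 0.13, limma adjusted p = 0.018), lost without ABCE1 replicate 1 (0.092) or ABCE1 replicate 2 (0.056; range 0.0046 to 0.1). EIF1 was lower with YAE1 guides (-0.24 ± 0.05, limma adjusted p = 0.018), and not without ABCE1 replicate 1 (0.1) or ABCE1 replicate 2 (0.062; range 0.002 to 0.1). EIF4EBP2 (0.30 ± 0.05, limma adjusted p = 0.0077) and EIF4B (0.21 ± 0.04, limma adjusted p = 0.0077) were higher, calls lost without ABCE1 replicate 1 (0.05 and 0.054). EIF3L (0.21 ± 0.05, limma adjusted p = 0.018) was lost without ABCE1 replicate 1 (0.11) or YAE1 replicate 1 (0.054), and EIF2S1 (-0.20 ± 0.04, limma adjusted p = 0.016) without ABCE1 replicate 2 (0.099). EIF3A (-0.23 ± 0.07, limma adjusted p = 0.048) and EIF3K (0.20 ± 0.06, limma adjusted p = 0.046) were lost without any library but YAE1 replicate 2, with ranges of 0.007 to 0.18 and 0.0069 to 0.16. EIF4G2 (-0.15 ± 0.04, limma adjusted p = 0.027) was lost without any control or ABCE1 library (range 0.0055 to 0.13).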

How the data were processed

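RNA from 6 A375 libraries was sequenced as strand-specific paired reads, and the authors deposited 1 table of FPKM per gene and library, per the file headers. The build was GRCh37, per the submitters' processing notes; for aligner, counter and annotation, nothing is stated in the material used here. The labels' organism field names mouse, while the cell type and build are human, and the genotype field of 2 groups disagrees with the titles, so groups were taken from the titles. The FPKM of low genes fall on steps, which gave the fragments per library. For each member the smallest fragment numbers that fit were taken, in units of 0.5 fragments and within a tolerance of 2e-05. The common factor of each gene is unknown, so no count test was run.

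The members and gene lists were chosen with earlier results of these data known. Genes averaging at least 1 FPKM over the 6 libraries were tested with limma 3.58.1 in R 4.3.3 on log2(FPKM + 1), with 3 groups in 1 fit, a variance trend and Benjamini-Hochberg adjustment over all genes tested (threshold 0.05, residual degrees of freedom 3), after the script was tested on simulated data. Log2 changes are on the log2(FPKM + 1) scale, which understates the change of low genes, and printed folds are ratios of the groups' mean FPKM. Values per library are given for the members with the 10 largest called changes in each knockout, those called in opposite directions, the 5 largest called differences between knockouts, the most and least abundant, and 4 paralogue pairs. The 14 alternatives changed the pseudocount (0.1), the filter (none, or 5 FPKM), the scaling (centred on the median gene, quantile), the libraries fitted, the replicate block or the variance trend, or left out 1 library; the lone library of a group was then assumed to vary like the other groups.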

Additional observations from a re-analysis of the deposited data

Results flagged for a closer look

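EEF2 and EIF3J were called in opposite directions with ABCE1 and YAE1 guides, and the direct test between the knockouts passed for both. The YAE1 minus ABCE1 difference was 0.35 for EEF2 (limma adjusted p = 0.0026) and -0.41 for EIF3J (limma adjusted p = 0.0022) on the log2 scale, and both differences were called under all 14 alternatives. Both knockouts are set against the same control libraries, but the difference between them does not use those libraries' levels. The calls against control were less stable. EEF2 became 0.05 with YAE1 guides after centring and 0.01 with ABCE1 guides under quantile normalization. EIF3J became -0.01 with ABCE1 guides after centring, while its fall with YAE1 guides was called under every alternative. Genes of at least 200 FPKM had median changes of -0.207 with ABCE1 guides, 0.066 with YAE1 guides and 0.24 between the knockouts. EEF2 stood at -0.20, 0.15 and 0.35 in these. The groups of 2 libraries were too small to check for single libraries that stand apart.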

How the results depend on the processing

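The count of members higher with ABCE1 guides was 8, and became 5 without the filter, 4 after centring on the median gene, and 4 to 8 when 1 library was left out. Members lower with YAE1 guides numbered 20, and 12 to 21 with 1 library left out. Between the knockouts 9 members were higher, and 5 to 10 with 1 library left out; 8 were lower, and 3 without the filter and 3 to 8 with 1 library left out. Where the main or the alternative value was called, signs turned for EIF2S1 (-0.13), EIF3J (-0.01) and EIF4B (-0.03) with ABCE1 guides after centring, and under quantile normalization for EEF2 with ABCE1 guides (0.01) and for EIF3I between the knockouts (-0.16); the cause was not tested. A further 8 signs after centring and 9 under quantile normalization turned where neither value was called. With the replicate number as a block the counts were 7 higher and 17 lower with ABCE1 guides, 7 and 17 with YAE1 guides and 8 and 8 between the knockouts, with 6 calls lost and 1 gained. The labels give only a number, and same-numbered libraries did not deviate together (correlations of -0.053, -0.0133 and -0.00926), so the numbers were not taken to pair the libraries. Of 69 calls, between 50 (no filter) and 69 (a mean of at least 5 FPKM) were kept over the 14 alternatives. The losses listed above for single members do not cover every setting. Without the filter 19 calls were lost, without the variance trend 11, and with only the 4 libraries compared 8. Centring on the median gene added 13 calls, not all of which are listed by member. The members' fragment numbers are the smallest that fit the FPKM steps, so the counting errors are upper limits. The largest was 10.4%, for EIF4A1.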
